A study of Mus musculus with 6 samples.

Results

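The serine-threonine protein phosphatase genes with the symbols Ppp1 to Ppp6 carried 44 UTX sites in progenitor CD8 T cells, out of 6739 sites in the authors' deposited table of sites that differed between the genotypes. The members are all rows of that table, itself selected on the FDR of the authors' genotype comparison, whose assigned gene symbol begins with Ppp and a digit from 1 to 6, and they belong to 34 genes, of which 33 are protein-coding and 1, Ppp4r1l-ps, is a transcribed pseudogene. UTX, encoded by Kdm6a, removes methyl groups from lysine 27 of histone H3 and also works as a partner of enhancer complexes. CUT&Tag, in which an antibody guides a transposase to cut DNA where the target protein sits, was run with an antibody against UTX on Ly108-positive, CXCR6-negative CD8 T cells sorted from pancreatic lymph nodes. The 3 WT samples came from NOD.NY8.3 mice, diabetes-prone animals with a transgenic T cell receptor for an islet antigen, and the 3 UTX-deficient samples came from UTXTCD.NY8.3 mice, which carry the same receptor and lack UTX in T cells. The labels give no age, driver of the deletion or pooling of animals, and do not say whether the samples came from separate mice, so the spread between samples may be partly technical. The comparison asks which regions are bound by UTX, with the deficient cells showing what signal remains without the protein.

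Serine-threonine phosphatases of this family work as small catalytic subunits that gain their targets from a large set of partner subunits. PP1 pairs with a single regulator at a time, PP2A is built from a catalytic, a scaffold and a regulatory subunit, PP4 and PP6 are built along similar lines, and PP5 carries its own regulatory domain. Calcineurin, also called PP2B, is activated by calcium and calmodulin after T cell receptor stimulation and dephosphorylates NFAT factors, the step that cyclosporin and tacrolimus block. PP2A opposes many kinase pathways in lymphocytes, and PP1 with its regulators acts on translation, transcription, actin and glycogen.

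The promoter sequences behind several of these sites are shown because they cover PP2A from catalytic to regulatory subunit, calcineurin, PP6 and a PP1 regulator. Each line is the 250 bases before the annotated start in RefSeq for GRCm38.p6, the assembly of mm10, written 5′ to 3′ along the gene. Capitals mark the letters GGGCGG of a GC box, the cAMP response element (CRE) with letters TGACGTCA, the box named CCAAT for its letters or the NRF1 motif, each on either strand, and neighbouring GC boxes can overlap.
Ppp2ca: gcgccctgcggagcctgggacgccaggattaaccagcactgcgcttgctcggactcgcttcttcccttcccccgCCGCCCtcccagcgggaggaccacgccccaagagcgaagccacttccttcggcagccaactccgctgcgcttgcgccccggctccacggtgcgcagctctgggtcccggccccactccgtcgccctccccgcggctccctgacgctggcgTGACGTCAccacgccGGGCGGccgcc
Ppp2r1a: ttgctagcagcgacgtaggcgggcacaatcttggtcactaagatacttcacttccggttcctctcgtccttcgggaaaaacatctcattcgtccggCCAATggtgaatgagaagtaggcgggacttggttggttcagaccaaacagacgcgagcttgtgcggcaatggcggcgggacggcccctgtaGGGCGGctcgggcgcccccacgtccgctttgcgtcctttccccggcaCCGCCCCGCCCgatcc
Ppp2r5a: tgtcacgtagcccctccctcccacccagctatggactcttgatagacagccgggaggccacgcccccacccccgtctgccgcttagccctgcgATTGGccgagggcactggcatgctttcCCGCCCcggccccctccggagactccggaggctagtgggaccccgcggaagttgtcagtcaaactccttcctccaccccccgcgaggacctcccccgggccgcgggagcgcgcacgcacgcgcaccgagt
Ppp3r1: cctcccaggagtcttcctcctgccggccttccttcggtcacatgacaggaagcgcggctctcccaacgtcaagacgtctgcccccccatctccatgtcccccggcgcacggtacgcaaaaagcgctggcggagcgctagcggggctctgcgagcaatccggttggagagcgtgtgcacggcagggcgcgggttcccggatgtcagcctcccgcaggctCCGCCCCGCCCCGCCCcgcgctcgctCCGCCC
Ppp6r1: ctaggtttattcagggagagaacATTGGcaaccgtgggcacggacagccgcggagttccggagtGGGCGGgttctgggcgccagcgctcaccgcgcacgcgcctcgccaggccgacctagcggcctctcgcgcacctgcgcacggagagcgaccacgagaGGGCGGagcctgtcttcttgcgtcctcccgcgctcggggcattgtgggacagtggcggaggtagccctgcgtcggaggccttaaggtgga
Ppp1r16b: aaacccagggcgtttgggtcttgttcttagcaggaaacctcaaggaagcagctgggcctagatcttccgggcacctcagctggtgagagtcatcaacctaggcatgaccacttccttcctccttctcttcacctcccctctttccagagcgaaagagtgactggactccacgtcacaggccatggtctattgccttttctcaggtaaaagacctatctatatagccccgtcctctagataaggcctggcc
The windows lie at chr11:52098574-52098823 (+ strand) for Ppp2ca, chr17:20945204-20945453 (+) for Ppp2r1a, chr1:191397042-191397291 (−) for Ppp2r5a, chr11:17159048-17159297 (+) for Ppp3r1, chr7:4658951-4659200 (−) for Ppp6r1 and chr2:158666483-158666732 (+) for Ppp1r16b. The sites covered all 250 bases at Ppp2ca and Ppp6r1, 248 at Ppp2r1a, 232 at Ppp1r16b, 214 at Ppp3r1 and 206 at Ppp2r5a. Ppp2ca, the catalytic subunit of PP2A, held 30 CpG dinucleotides and a CRE that begins 26 bases before the start. Ppp3r1, the calcium-binding subunit of calcineurin, held 4 GC boxes within 32 bases of the start. Ppp1r16b held none of the marked motifs and 5 CpG dinucleotides, against 24 to 30 in the other 5 windows.

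The deposited table gives group means, and whole reads per library were recovered from these for all 44 sites. Recovered libraries carry no sample name and are called 1 to 3 by falling depth within each genotype. With the average of all 6 set to 1, depth was 0.792 to 1.28 in WT, 1.93 and 1.07 in UTX-deficient libraries 1 and 2, and 0.00577 in UTX-deficient library 3, which was close to empty. Library 3 held no read at any of the 44 sites, and since the limit that a count of 0 allows is worth 520 normalized reads there, it says nothing about them. Of the 8 T cell markers chosen to check the label, 7 had a site lower in UTX-deficient cells, among them Cd8a, Cd8b1 and Cd3e, against 0 of 5 B cell and 0 of 5 myeloid markers. Such a site was found at 22.1% of all protein-coding genes, so the counts of 0 of 5 are a weak check of the label. Lck, one of the 7, also had 1 site that was higher.

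UTX-deficient cells had less UTX signal at each member site, and the residual signal was small. Summed over the 44 sites, reads numbered 2497, 1987 and 1416 in the WT libraries against 76, 173 and 0 in the UTX-deficient ones. The mean per site was 44.8 ± 4.35 normalized reads (SD, n = 3) for WT against 2.28 ± 1.96 (SD, n = 2) for UTX-deficient libraries 1 and 2, which averaged 0.893 and 3.67. With the near-empty library counted as 0, as in the deposited group values, the UTX-deficient mean would be 1.52. Single sites ranged from 10.1 to 187 normalized reads in WT libraries and reached at most 12.1 in UTX-deficient libraries 1 and 2. Each WT library lay above UTX-deficient libraries 1 and 2 at 44 of 44 sites, as it did at 99.8% of all sites with recovered reads, and library 3 could not be placed. All 44 were lower in UTX-deficient cells at an FDR under 0.05 in the authors' deposited table, where 81% of the tested sites were called in that direction. Sites entered the table because they differed, so these counts describe the choice and support nothing beyond it.

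**Figure D1:**
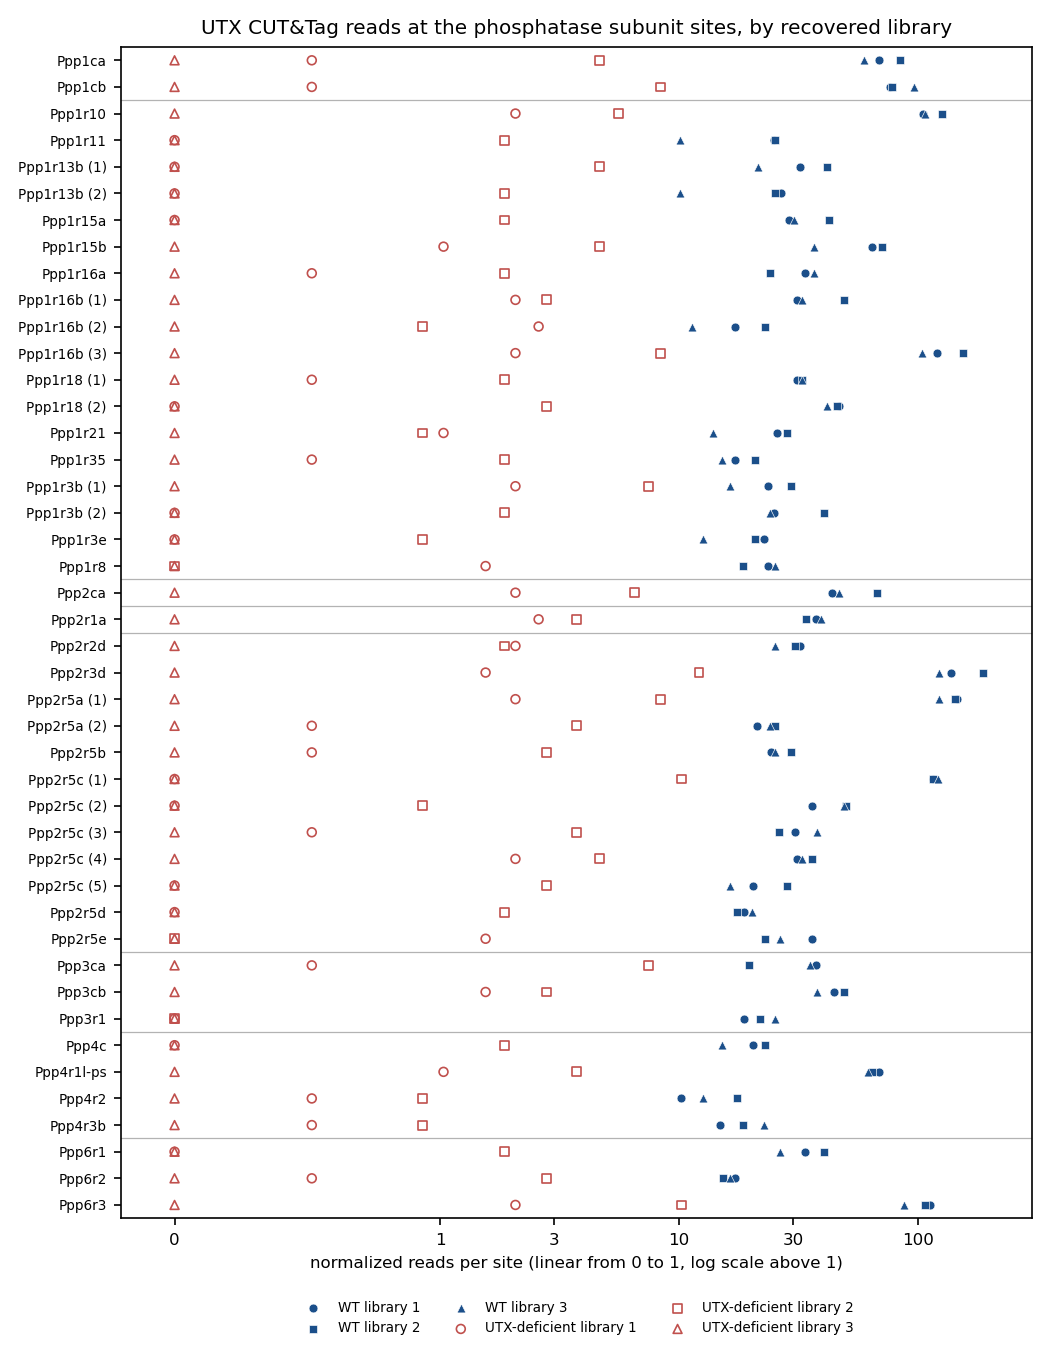
Normalized reads (reads divided by relative depth) at each of the 44 sites, on an axis that is linear to 1 and logarithmic above, with filled blue symbols for the 3 WT libraries and open red symbols for the 3 UTX-deficient ones. Grey lines separate the subunit classes and numbers in brackets order a gene's sites by position. WT symbols sit between 10.1 and 187, and UTX-deficient symbols at or below 12.1, where the symbols of library 3 at 0 carry no information.

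The size of the decrease was close to that of the table as a whole. The median log2 fold of the 44 sites was -3.52 in the authors' deposited table (quartiles -4.12 and -2.86), beside -3.50 over all sites. That fold is a fitted value, smaller in size at all 44 sites than the difference of the deposited group concentrations, whose median was -4.50. At 20 of the 44 sites (45.5%, against 37.6% of all sites) the UTX-deficient concentration was at the lowest value of its scale. The difference there is minus the WT concentration. The UTX-deficient concentration also counts the near-empty library as holding no reads, so the median of -4.50 depends on both limits. Read numbers were therefore also compared directly, as the WT to UTX-deficient ratio of reads summed over a genotype's libraries and divided by their summed depth. This read ratio had a median of 25.4 over the members with a UTX-deficient read and of 20.2 over all such sites. It ran from 5.88 to 132 among members, and the lowest bound of any exact 95% interval was 3.17. The intervals cover counting error only, and without molecular identifiers several reads can stem from 1 molecule.

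**Figure D2:**
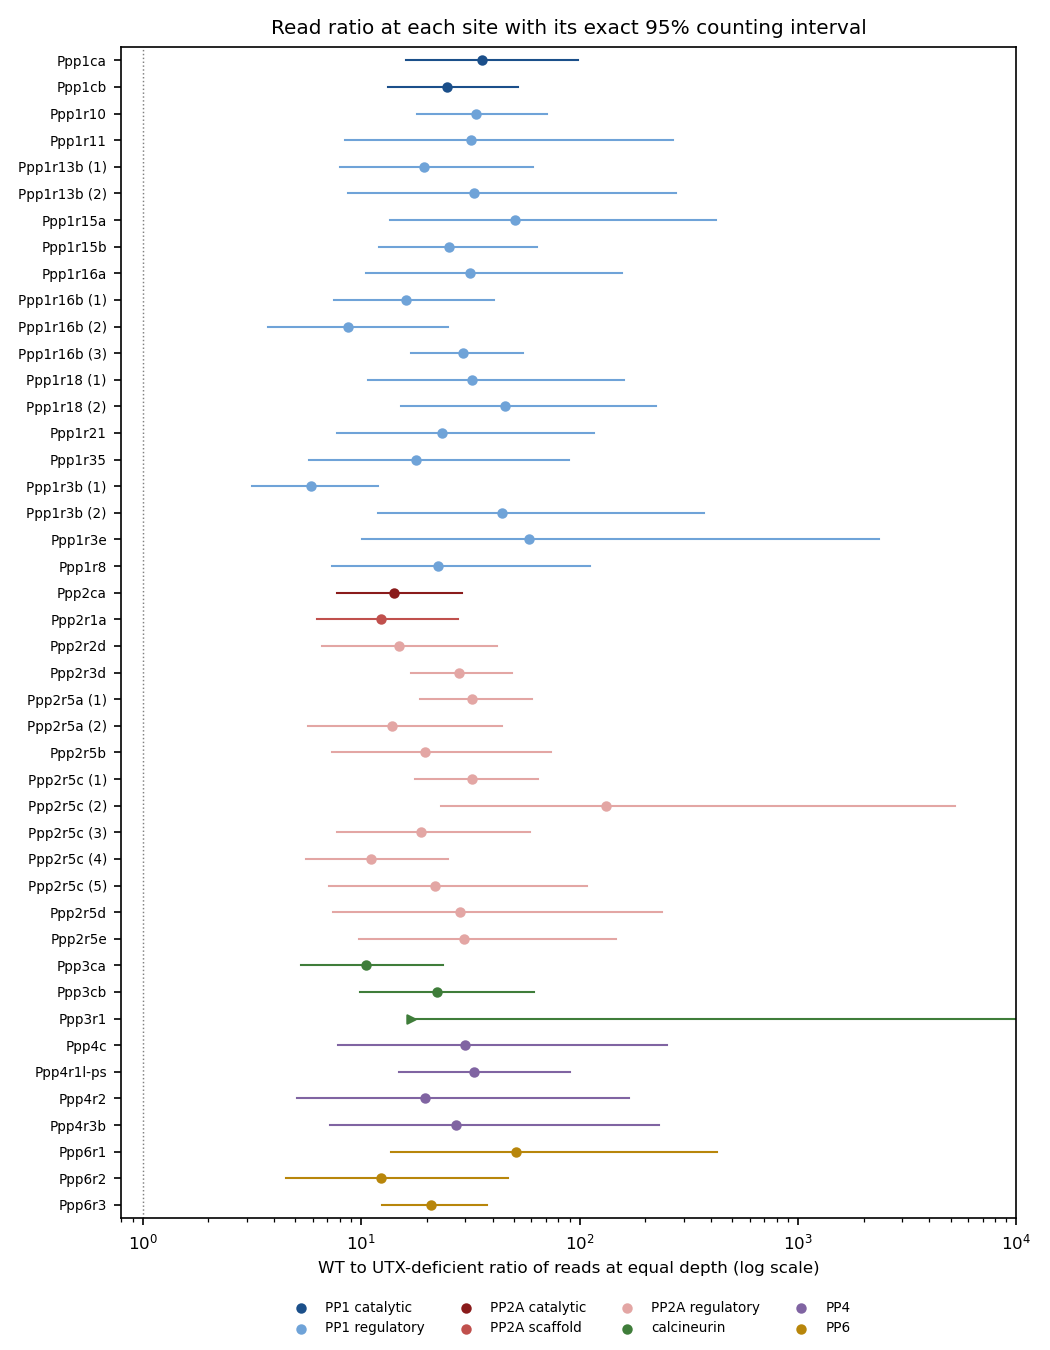
WT to UTX-deficient ratio of reads at equal depth for each site on a logarithmic axis, with exact 95% counting intervals and colours for the subunit classes. The triangle at Ppp3r1 marks the lower end of its interval, 17.0, since no UTX-deficient read was found there. Every interval lies to the right of the dotted line at equal signal, the lowest reaching down to 3.17 at a Ppp1r3b site.

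Phosphatase genes with a site were 33 of the 77 protein-coding genes of the family (42.9%, exact 95% interval 31.6 to 54.6, treating genes as independent). Of all 21896 protein-coding genes, 22.1% had a site lower in UTX-deficient cells. Genes that T cells do not express count in both shares, and the family was chosen with these results known, so the shares are given as a description. Sites were at 2 of 3 PP1 catalytic genes, 13 of the other 42 Ppp1 genes, 1 of 2 catalytic, 1 of 2 scaffold and 7 of 12 regulatory genes of PP2A, 3 of 5 calcineurin genes, 3 of 6 PP4 genes and 3 of 4 PP6 genes. Ppp5c, the gene of PP5, had none in the authors' deposited table.

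**Figure D3:**
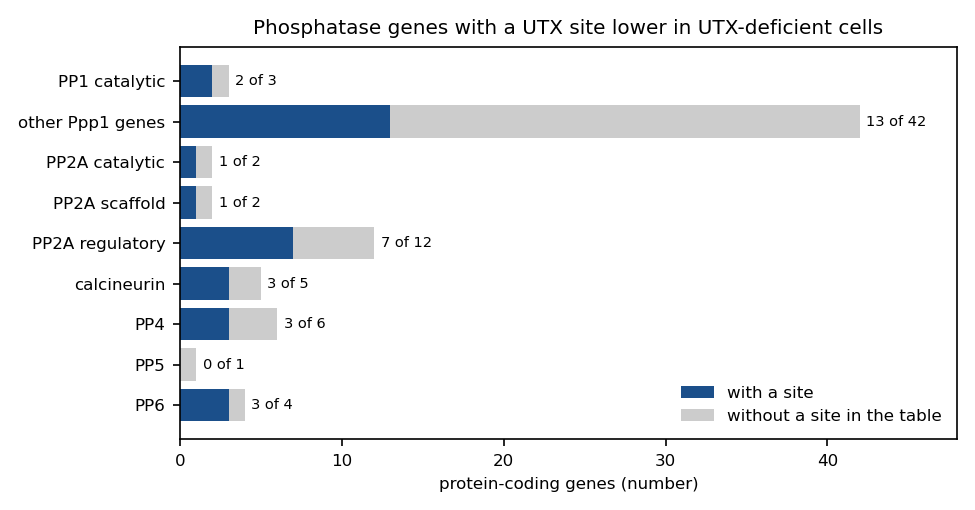
Number of protein-coding phosphatase genes in each class, with the part that had a UTX site lower in UTX-deficient cells in blue and the rest in grey. The other Ppp1 genes form the largest class, with 13 of 42, and PP5 is the class without a site.

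Among 11 catalytic genes, 6 (54.5%) had a site, each a single one within 1 kb of an end of the gene. Of all protein-coding genes, 15.3% had a site within 1 kb of an end. Ppp1ca, which encodes the alpha isoform of PP1, had the largest fold in size of the 6. Its site, on chromosome 19 from 4191733 to 4192133, lay just outside the gene with its middle 241 bp from the gene end. Read numbers were 88, 77 and 47 (WT) against 1, 5 and 0 (UTX-deficient), a read ratio of 35.6 (95% interval 16.1 to 98.2). Its log2 fold was -4.68 with an FDR of 2.22e-16, per the authors' deposited table. Ppp1cb, the beta isoform that works in myosin phosphatase, had a site on chromosome 5 from 32458821 to 32459221 whose middle lay 51 bp inside the start. Read numbers were 98, 71 and 76 (WT) against 1, 9 and 0 (UTX-deficient), with a log2 fold of -3.98 at FDR 1.12e-08 per the authors' deposited table. The WT level was higher at Ppp1cb than at Ppp1ca, at 83.4 ± 10.9 against 70.7 ± 12.5 normalized reads (SD, n = 3), a difference within the spread of the libraries. Ppp1cc, the gamma isoform, had no site in the authors' deposited table, nor had Ppp1ccb, which is counted here among the other Ppp1 genes although its symbol places it beside Ppp1cc.

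Ppp2ca carried its site over the promoter printed above, on chromosome 11 from 52098489 to 52098889. Reads were 56, 62 and 37 (WT) against 4, 7 and 0 (UTX-deficient), a read ratio of 14.2 (95% interval 7.73 to 29.1). WT libraries thus lay well above the others, while each of the well-sequenced UTX-deficient libraries kept some reads. In the authors' deposited table this site has a log2 fold of -3.54 (FDR 1.52e-11). Its close paralogue Ppp2cb had no site there. Ppp4c, the catalytic subunit of PP4, had a weaker site on chromosome 7 from 126792335 to 126792735, across its start. Read numbers were 26, 21 and 12 (WT) against 0, 2 and 0 (UTX-deficient), and the authors' deposited table gives a log2 fold of -2.87 (FDR 0.0138). Ppp6c, the catalytic subunit of PP6, was again without a site in the authors' deposited table.

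Calcineurin was represented by both broadly expressed catalytic isoforms and by the regulatory subunit. Ppp3cb, the beta isoform, had a site on chromosome 14 from 20546085 to 20546485. Reads there were 57, 45 and 30 (WT) against 3, 3 and 0 (UTX-deficient), and the authors' deposited table gives a log2 fold of -4.03 (FDR 3.75e-12). The middle of that site lay 288 bp inside the Ppp3cb start and 8 bp from the start of 1810062O18Rik, so the assignment to Ppp3cb is that of the authors. Ppp3ca, the alpha isoform, had a site on chromosome 3 from 136669687 to 136670087, 173 bp from a gene end. It held 48, 18 and 28 reads (WT) against 1, 8 and 0 (UTX-deficient). WT library 2 was the lowest at 19.6 normalized reads, still above the 7.46 of UTX-deficient library 2. The log2 fold of -2.37 at FDR 0.0165 per the authors' deposited table was among the smallest 5 of the members. At Ppp3r1, the calcium-binding subunit, the site on chromosome 11 from 17159084 to 17159484 had its middle 14 bp before the start. Its reads were 24, 20 and 20 (WT) against 0 in every UTX-deficient library, so WT was at least 21.5-fold higher against the limit of 3 reads over the deficient group. That bound leaves out the counting error of the WT reads, and the exact 95% interval of the ratio begins at 17.0. It was the only member without a read in UTX-deficient cells, against 1.47% of all sites. The third catalytic gene, Ppp3cc, and the testis-type subunit gene Ppp3r2 had no site in the authors' deposited table.

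The scaffold and regulatory subunits of PP2A held 13 sites, among them 3 of the 5 members with the highest WT concentration. Ppp2r1a, the main scaffold, had a site on chromosome 17 from 20945051 to 20945451, just before the gene. Read numbers were 48, 31 and 31 (WT) against 5, 4 and 0 (UTX-deficient), with a log2 fold of -3.32 at FDR 6.56e-10 per the authors' deposited table. The read ratio was 12.3 (95% interval 6.26 to 27.7), and its interval overlapped that of Ppp2ca. Ppp2r1b, the other scaffold gene, had no site in the authors' deposited table.

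The B56 regulatory subunits, encoded by Ppp2r5a to Ppp2r5e, direct PP2A to short motifs in its substrates. All 5 genes had at least 1 site, against 22.1% of all protein-coding genes. Ppp2r5a had the smallest FDR of all members. Its main site, on chromosome 1 from 191397086 to 191397486, had its middle 245 bp before the start and held 186, 131 and 97 reads (WT) against 4, 9 and 0 (UTX-deficient). Its log2 fold was -4.72 with an FDR of 9.49e-24, per the authors' deposited table. A further Ppp2r5a site, from 191420977 to 191421377, lay 24136 bp before the start and 602 bp from that of Gm32128, and was much weaker, with 27, 23 and 19 reads (WT) against 1, 4 and 0 (UTX-deficient). Its log2 fold was -2.86 (FDR 0.00121) in the authors' deposited table.

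Ppp2r5c had the most sites of any member, 5, spread over 60010 bp of chromosome 12. The most upstream site, from 110446387 to 110446787, lay 935 bp before the nearest start and held 148, 106 and 96 reads (WT) against 0, 11 and 0 (UTX-deficient). The WT libraries stood close together there, at 118 ± 3.15 normalized reads (SD, n = 3), while the well-sequenced UTX-deficient libraries were at 0 and 10.3. The log2 fold of -3.71 came with an FDR of 5.8e-04 in the authors' deposited table, the 29th smallest of the 44 although the WT concentration was the fourth highest. The site from 110485844 to 110486244 lay 247 bp inside an internal start and 141 bp from a start of Gm19605. Read numbers were 46, 46 and 39 (WT) against 0, 1 and 0 (UTX-deficient). That is the largest log2 fold in size among the members, -5.22 (FDR 1.92e-10) in the authors' deposited table, and the highest read ratio of the members with a UTX-deficient read, 132 with an interval from 23.3 to 5259. The other 3 sites, from 110499143, 110503392 and 110505996, lay inside the gene, 13546 to 20399 bp past that internal start. Their WT levels fell between 21.7 and 33.4 normalized reads, and their log2 folds were -3.51, -3.14 and -2.63 in the authors' deposited table. Sites of 1 gene share their assignment, so they are not separate evidence about Ppp2r5c.

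**Figure D4:**
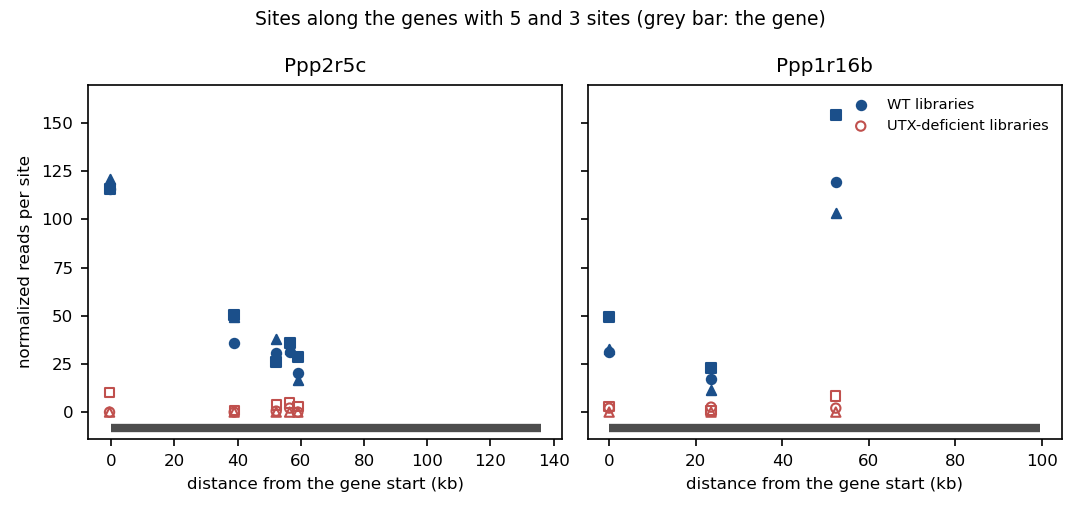
Normalized reads at the 5 sites of Ppp2r5c and the 3 sites of Ppp1r16b against distance from the start of the gene in kb, with filled blue symbols for WT libraries, open red symbols for UTX-deficient libraries and a grey bar for the gene. At Ppp2r5c the most upstream site is highest, and at Ppp1r16b the site 51941 bp past the nearest listed start is highest.

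Ppp2r5b, Ppp2r5d and Ppp2r5e had 1 site each, within 273 bp of an end of the gene. Ppp2r5b held 31, 27 and 20 reads (WT) against 1, 3 and 0 (UTX-deficient), a log2 fold of -3.45 at FDR 8.85e-06 per the authors' deposited table. Ppp2r5d held 24, 16 and 16 (WT) against 0, 2 and 0 (UTX-deficient), and Ppp2r5e held 46, 21 and 21 against 3, 0 and 0. The regulatory gene Ppp2r2d, a B55 subunit, had 41, 28 and 20 reads (WT) against 4, 2 and 0 (UTX-deficient) at its start. An end of another gene lay nearer to that site than any end of Ppp2r2d, and Mapk1ip1 overlaps the Ppp2r2d promoter window. Ppp2r3d had the highest WT level of the members, 149 ± 33.7 normalized reads (SD, n = 3), on chromosome 9 from 124423076 to 124423476. Reads were 175, 171 and 97 (WT) against 3, 13 and 0 (UTX-deficient), with a log2 fold of -4.10 at FDR 9.08e-08 per the authors' deposited table. That site lay 53586 bp from the Ppp2r3d start and 124 bp from the start of LOC108167694, so its link to Ppp2r3d rests on the assignment alone. The regulatory genes Ppp2r2a, Ppp2r2b, Ppp2r2c, Ppp2r3a and Ppp2r3c had no site in the authors' deposited table.

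Of the other Ppp1 genes, many of which encode proteins that place PP1 or inhibit it, 13 held 18 sites with a median log2 fold of -3.49, per the authors' deposited table. Ppp1r10 encodes PNUTS, which holds PP1 at RNA polymerase II. Its site, on chromosome 17 from 35916619 to 35917019, held 134, 115 and 85 reads (WT) against 4, 6 and 0 (UTX-deficient), with a log2 fold of -4.80 at FDR 1.86e-23 per the authors' deposited table. The start of Mrps18b lay 379 bp from the middle of that site and the nearest listed Ppp1r10 start 377 bp from it, so the site lay about as near to Mrps18b as to Ppp1r10. Ppp1r8 encodes NIPP1, a nuclear inhibitor of PP1, and held 30, 17 and 20 reads (WT) against 3, 0 and 0 (UTX-deficient) at its start.

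Ppp1r16b encodes TIMAP, a membrane-bound targeting subunit, and had 3 sites on chromosome 2. The highest was not at the start but inside the gene, from 158718876 to 158719276, with 153, 141 and 82 reads (WT) against 4, 9 and 0 (UTX-deficient) and a log2 fold of -4.50 at FDR 5.83e-17 per the authors' deposited table. At the start itself, from 158666501 to 158666901, reads were 40, 45 and 26 (WT) against 4, 3 and 0 (UTX-deficient), with a log2 fold of -3.59 at FDR 7.03e-09 per the authors' deposited table. WT levels at these places were 126 ± 25.7 and 37.7 ± 9.88 normalized reads (SD, n = 3), and the ranges over the libraries did not overlap. The third site, from 158690056 to 158690456, was the weakest, with 22, 21 and 9 reads (WT) against 5, 1 and 0 (UTX-deficient), and a log2 fold of -2.27 at FDR 0.0319 per the authors' deposited table. The related targeting gene Ppp1r16a had 43, 22 and 29 reads (WT) against 1, 2 and 0 (UTX-deficient). The middle of that site lay 98 bp from an end of Ppp1r16a, with an end of another gene nearer still.

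Ppp1r18 encodes phostensin, which brings PP1 to actin filaments in leukocytes, and had 2 sites, both inside the gene on chromosome 17. The stronger, from 35870185 to 35870585, held 60, 42 and 33 reads (WT) against 0, 3 and 0 (UTX-deficient), with a log2 fold of -4.66 at FDR 7.63e-12 per the authors' deposited table. The other, from 35868162 to 35868562, held 40, 30 and 26 (WT) against 1, 2 and 0 (UTX-deficient), with a log2 fold of -4.14, per the authors' deposited table. They lay 3770 and 1747 bp past the nearest listed start. WT libraries were tight at both sites, at 44.8 ± 2.78 and 32.3 ± 0.867 normalized reads (SD, n = 3).

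The regulators of the stress response, Ppp1r15a and Ppp1r15b, direct PP1 to the translation factor eIF2 alpha, the former when induced and the latter constitutively. Ppp1r15a held 37, 39 and 24 reads (WT) against 0, 2 and 0 (UTX-deficient), a log2 fold of -4.39 at FDR 4.46e-08 per the authors' deposited table. That site lay 123 bp before the Ppp1r15a start and 61 bp from the start of Plekha4. Ppp1r15b held 82, 65 and 29 (WT) against 2, 5 and 0 (UTX-deficient), a log2 fold of -4.12 at FDR 2.68e-11 per the authors' deposited table. WT library 3 was the lowest there, at 36.6 normalized reads against 64.1 and 71.0.

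Ppp1r3b and Ppp1r3e encode glycogen-targeting subunits. Ppp1r3b had 2 sites on chromosome 8, on either side of the gene and 51884 and 42689 bp from its nearer end. The site from 35323610 to 35324010 had the smallest log2 fold in size of all members, -1.93 (FDR 0.0218) in the authors' deposited table. Its reads were 30, 27 and 13 (WT) against 4, 8 and 0 (UTX-deficient), and its read ratio of 5.88 (95% interval 3.17 to 11.9) was the lowest of the members. The opposite site, from 35430628 to 35431028, held 32, 37 and 19 (WT) against 0, 2 and 0 (UTX-deficient), a log2 fold of -4.05 at FDR 4.16e-06 per the authors' deposited table. WT levels at the Ppp1r3b sites, 23.1 ± 6.54 and 29.8 ± 9.18 normalized reads (SD, n = 3), came from libraries whose ranges overlapped. At Ppp1r3e, reads were 29, 19 and 10 (WT) against 0, 1 and 0 (UTX-deficient).

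The remaining Ppp1 sites lay at gene starts, apart from 1. Ppp1r13b encodes ASPP1, a p53 cofactor, and had a site across its start on chromosome 12 with 41, 38 and 17 reads (WT) against 0, 5 and 0 (UTX-deficient). Its other site, 6153 bp before the start, held 34, 23 and 8 (WT) against 0, 2 and 0 (UTX-deficient). Log2 folds at these Ppp1r13b sites were -2.85 and -2.80 in the authors' deposited table. Ppp1r11, an inhibitor of PP1, held 32, 23 and 8 (WT) against 0, 2 and 0 (UTX-deficient). WT library 3 was low at Ppp1r11 and at the upstream Ppp1r13b site, at 10.1 normalized reads in each against at least 25.0 in the other WT libraries. Ppp1r21, an endosomal protein, held 33, 26 and 11 (WT) against 2, 1 and 0 (UTX-deficient), and Ppp1r35, a centriole protein, held 22, 19 and 12 against 1, 2 and 0.

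PP4 and PP6 acquire their targets through R subunits. Ppp4r2 lay closest to the threshold of the table, with an FDR of 0.0426 and a log2 fold of -2.44, per the authors' deposited table, and had the lowest WT concentration of the members. Its site spanned the start on chromosome 6 from 100833477 to 100833877, with 13, 16 and 10 reads (WT) against 1, 1 and 0 (UTX-deficient). Sites just outside the threshold were not analysed here. Ppp4r3b, which recognises PP4 substrates, held 19, 17 and 18 reads (WT) against again 1, 1 and 0 (UTX-deficient). The pseudogene Ppp4r1l-ps had the fourth smallest FDR, with 88, 59 and 49 reads (WT) against 2, 4 and 0 (UTX-deficient) and a log2 fold of -4.61 at FDR 6.43e-17 per the authors' deposited table. The middle of that site lay 145 bp from an end of Ppp4r1l-ps and 161 bp from the start of Rab22a, a protein-coding neighbour.

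Of the PP6 regulatory genes, Ppp6r3 had the strongest site, on chromosome 19 from 3575801 to 3576201. Read numbers were 144, 98 and 69 (WT) against 4, 11 and 0 (UTX-deficient), with a log2 fold of -3.99 at FDR 1.32e-13 per the authors' deposited table. Ppp6r1 held 43, 37 and 21 (WT) against 0, 2 and 0 (UTX-deficient) across its start, with a log2 fold of -4.38 at FDR 4.68e-08 per the authors' deposited table. Ppp6r2 differed in place, with its site 71110 bp past the listed start and 4346 bp from the other end of the gene. There the reads were 22, 14 and 13 (WT) against 1, 3 and 0 (UTX-deficient), and the log2 fold was -2.31 (FDR 0.0324) in the authors' deposited table.

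**Figure D5:**
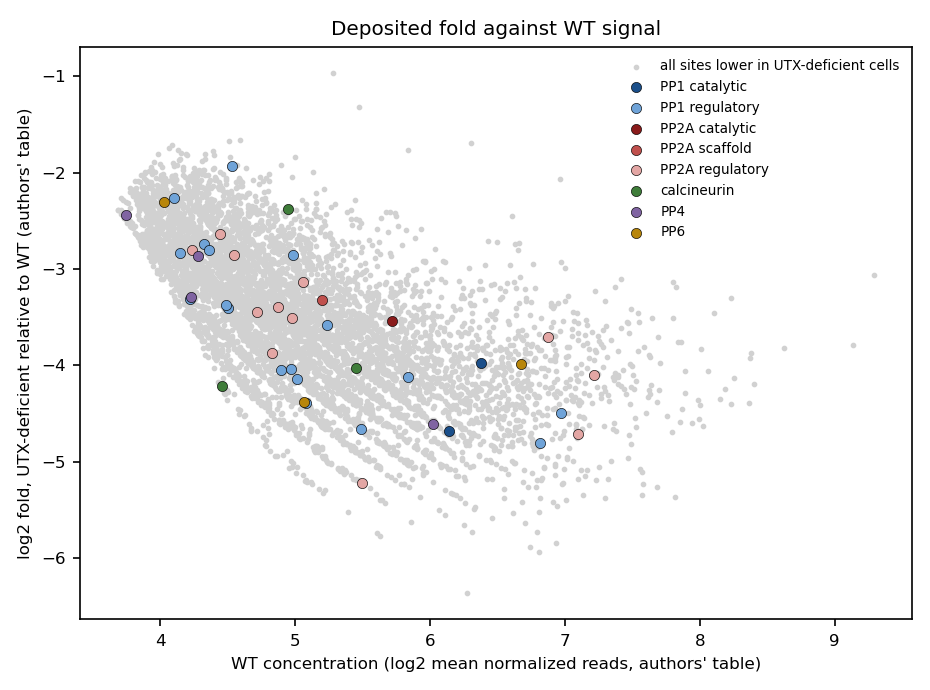
Log2 fold (UTX-deficient relative to WT) against WT concentration (log2 mean normalized reads), both from the authors' deposited table, for all sites lower in UTX-deficient cells in grey and the 44 phosphatase sites in colours by class. The phosphatase sites run from -5.22 to -1.93 and lie within the grey cloud.

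The residual reads of the members followed the order of the libraries seen in the whole table. At 38 of 44 sites (86.4%) UTX-deficient library 2 had more normalized reads than library 1, against 83.9% of all sites. Library 1, the deepest of the 6, reached at most 2.58 normalized reads at a member. With 3 or fewer reads in UTX-deficient cells at 20 of the 44 sites, the read ratio of single sites is known only within wide limits.

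Most phosphatase sites lay at the ends of genes. The middle of 30 of 44 sites (68.2%) was within 1 kb of an end of the assigned gene, against 53.0% of all sites that could be placed, with medians of 191 and 659 bp. A start was listed in RefSeq for 26 of the 34 genes and 35 of the sites, and 24 of these 35 (68.6%) lay within 1 kb of it, against 60.8% of all sites with a listed start. Another gene's end was nearer than any end of the assigned gene at 13 of the 44 sites, so the assigned gene's end was nearest at 70.5%, as at 70.3% of all placed sites. The 24 sites near a start had a median log2 fold of -3.49 and the 11 farther away had -3.14 in the authors' deposited table. Their median WT concentrations were 5.03 and 4.98 on the log2 scale in the authors' deposited table.

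The promoters under these sites were rich in CpG and GC boxes, as were promoters under UTX sites in general. A listed promoter window of 300 bases (250 before to 50 after the start) was overlapped by a site of its own gene at 22 member genes and at 2897 genes of the table. The median number of CpG dinucleotides per window was 27.5 at the members, 25 at the 2897 genes and 7 over all 27026 promoters, and the median G+C content was 63%, 64% and 52.7%. The GC box GGGCGG was found on either strand in 16 of 22 member windows (72.7%), in 80.3% of the 2897 and in 35.9% of all. The ETS core GGAAG was in 18 of 22 (81.8%), 74.9% and 71.1%, and CCAAT was in 10 of 22 (45.5%), 46.7% and 38.0%. The CRE TGACGTCA, which CREB-family factors recognise, was in 3 of 22 (13.6%), namely Ppp2ca, Ppp2r2d and Ppp1r15a, against 3.94% and 1.85%. The NFAT core TTTCCA was in 6 of 22 (27.3%), against 12.4% and 21.5%, and the E2F motif GGCGGGAA in 2 of 22 (9.09%), against 5.56% and 2.27%. Neither the RUNX core TGTGGT nor the NRF1 motif was in any of the 22 windows, against 347 and 64 of the 2897. The letters of the E2F motif can overlap a GC box or an ETS core, and a match is not a binding site.

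Partners of these phosphatases that do not carry the Ppp names were counted from lists of the family's pathways. In the calcineurin and NFAT list, 10 of 15 genes had a site lower in UTX-deficient cells, with 14 sites and a median log2 fold of -3.98, per the authors' deposited table. Among them were the NFAT genes Nfatc1, Nfatc2, Nfatc3 and Nfat5, the cyclophilin gene Ppia and the calcineurin inhibitor Cabin1. Calm3, which encodes the calcium sensor calmodulin, held 107, 92 and 63 reads (WT) against 5, 6 and 0 (UTX-deficient) at its site. PP2A partners had a site at 7 of 14 genes, among them Strn and Strn3, which encode striatin subunits, Set and Anp32a, inhibitors of PP2A, and Ensa, a mitotic inhibitor. PP1 partners without the Ppp1r name had a site at 4 of 10 genes, and PPM-type and other serine-threonine phosphatases at 8 of 21, of which Ppm1h had 5 sites. No gene of these 4 lists had a site higher in UTX-deficient cells in the authors' deposited table, where 6718 of all 6739 sites were lower. Of all protein-coding genes, 22.1% had a site lower in UTX-deficient cells.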

How the data were processed

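UTX CUT&Tag was measured in 3 WT and 3 UTX-deficient samples, grouped by the titles. The submitters' processing notes name DiffBind, MACS2, Picard, SAMtools, Bowtie2, cutadapt and FastQC, and the build mm10. The version and role of each, and whether peak calling pooled the samples, were not given in the sources used here. The authors' deposited table holds, per its file headers, log2 concentrations (log2 of mean normalized reads, lowest value 0), a log2 fold, a p-value and an FDR per 401 bp site. The deposited FDR divided by the p-value and multiplied by the rank of the p-value has a median of 8293. Under a Benjamini-Hochberg adjustment, which is assumed here, that is the number of tests, of which 1554 lie outside the table.

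Calls rest on the fold and FDR of the authors (threshold 0.05). The antilog of a group's concentration, multiplied by 3, adds up 3 libraries' reads, each divided by that library's relative depth. Depths and reads were solved from these sums, given that relative depths of 6 libraries sum to 6. Both groups had exactly 1 solution at 6731 of 6739 sites. On a simulated table of 6731 sites, 6693 were solved and 0 wrongly. That table was built on the same model of whole reads and depths, so it tests the solving only. It cannot show that the deposited values follow the model. Recovered values were fitted with limma 3.58.1 in R 4.3.3 over all solved sites, on log2(normalized reads + 1), as an alternative. Tested on simulated data of 6731 sites, with the near-empty library replaced by a full one, limma called 99% of 200 sites lowered 4-fold and 0.061% of the others. The lowered sites were drawn from those with a higher WT mean, the spread between libraries was fixed, and most sites did not change. These rates therefore do not carry over to the real libraries. Intervals of read ratios are exact (Clopper-Pearson, 95%), from Python 3.11.15 with scipy 1.17.1. Genes, starts and promoters are from RefSeq (GRCm38.p6, the assembly of mm10); 26 of 34 member genes had a listed start. Distances run from the middle of a site.

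The members, gene lists and promoter motifs were chosen with earlier results of these data known. Values are given for every catalytic gene with a site, for the sites with the 5 largest and smallest folds, the 5 highest WT concentrations and the 5 smallest FDRs, for genes with several sites, and for the others within their class.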

Additional observations from a re-analysis of the deposited data

How the results depend on the processing

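All 44 sites kept their direction under each alternative that tested them. At an FDR of 0.01 the authors' deposited values call 34 (77.3%, against 86.8% of all sites of the table), at 0.001 they call 30 (68.2%, against 72.8%), and with a log2 fold of at least 1 in size they call 44. By limma on the recovered reads, adjusted over all sites (Benjamini-Hochberg), 44 were called with all libraries (99.8% of all solved sites were called lower). The same 44 were called with a pseudocount of 0.5, with any WT library left out and without the near-empty library. In that last fit 99.8% of all solved sites were called lower. A filter at a mean of at least 10 normalized reads left 37 member sites, all called. The share over all sites is not given for the other settings, so these counts show nothing particular to the members. Without the near-empty library, the largest adjusted p of a member by limma was 0.0014. Every other limma fit took the 0 reads of the near-empty library as low values, which enlarges the folds and lowers the adjusted p. Leaving out UTX-deficient library 1 or 2 keeps 1 informative library in that group beside the near-empty one. Calls from those fits do not bear on stability and are not given. The median log2 fold, -3.52 in the authors' deposited table, was -3.93 when each gene kept only its site with the smallest FDR. That choice favours larger folds, so it is not a neutral correction for genes with several sites. By limma with all libraries, the near-empty one included, the median over member sites was -4.12. It was -4.77 with a pseudocount of 0.5 and -4.35 with the filter on low values. With 1 WT library left out it ran from -4.22 to -4.09. It was -3.76 without the near-empty library, whose value at every member is 0. Without UTX-deficient library 1 or 2 it was -4.20 or -4.58, from fits with 1 informative library in that group. The share of family genes with a site was 42.9%, 40.3% within 10 kb and 37.7% within 1 kb of a gene end. Over all protein-coding genes these shares were 22.1%, 19.3% and 15.3%. For catalytic and scaffold genes alone the share at any distance was 53.8% (7 of 13). No paired analysis was possible because the table gives group values and the recovered libraries carry no replicate number. The residual signal rests on few reads, 3 or fewer in UTX-deficient cells at 20 of the 44 sites.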
